A study of Homo sapiens with 12 samples.

Results

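MDA-MB-231 cells with wild-type glucocorticoid receptor (wt-GR), starved of serum and given vehicle only, are described here by the absolute levels of their transcripts. The libraries taken were those labelled WT-GR Veh 1, 2 and 3, chosen by that label, which are 3 of the 12 libraries in the series. The study asked how phosphorylation of GR at the serine that S134A-GR lacks and the cytokine TGFβ1 act on gene expression, and it holds 4 groups of wt-GR or S134A-GR cells under vehicle or TGFβ1. MDA-MB-231 is an established human line of triple negative breast cancer. The wt-GR cells came from a non-targeted clone recovered after genome editing, so they stand for 1 clone of the line. Cells were kept for 18 h in IMEM with 1% DCC serum, which is stripped of steroids by dextran-coated charcoal, and vehicle was on the cells for 6 h. Libraries of mRNA were read from both ends in 75-base reads. No source says that the 3 libraries came from separate cultures, so the spread between them may be technical, and with a single group no test was made.

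GR, encoded by NR3C1, is a nuclear receptor that waits in the cytoplasm on HSP90 chaperones until a steroid binds it, and then acts on DNA in the nucleus. Epithelial cells are held together by E-cadherin and keep keratin filaments, whereas mesenchymal cells carry vimentin filaments and a fibronectin matrix and move singly. Triple negative tumours lack oestrogen and progesterone receptors and amplified ERBB2, and many carry basal features such as EGFR and basal keratins.

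The residue at which the study's genotypes differ is a serine codon of NR3C1. In the annotation, NR3C1 spans chromosome 5 from 143277931 to 143435512 on the minus strand of hg38, with a coding sequence of 777 codons, and this codon lies in exon 2. The stretch around it, at chr5:143400408-143400470 and read on the minus strand, is shown with the serine codon in capitals:
NR3C1 serine codon: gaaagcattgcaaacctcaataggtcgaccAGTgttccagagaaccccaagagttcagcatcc
This is the reference sequence. The deposited values hold no reads, so the wild-type label at this codon was not checked.

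The 4 marker genes fixed with the choice of libraries were all present, beside 71.1% of all protein-coding genes. Here and below, this means all 16156 that have an entry among the deposited values and a known length. Their presence cannot test the label, which names a genotype and a treatment. NR3C1 had 12729, 12139 and 10444 normalized counts in libraries 1, 2 and 3 (mean 11771 ± 1186, SD, n = 3). EGFR, the epidermal growth factor receptor, had 20048, 16545 and 13848 normalized counts. VIM, the vimentin gene, had 426532, 422419 and 419832 normalized counts, a mean of 422927 ± 3379. VIM ranked 6 among all genes, and its libraries lay close together. FN1, the fibronectin gene, had 57099, 41066 and 29774 normalized counts, and its libraries were widely apart. A normalized count here is the number of reads on a gene divided by the size factor of its library, so it grows with the length of the transcript.

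Recovered totals were 56362036, 85816979 and 86199175 reads. A floor of 3 reads, the limit that a count of 0 allows, stood at 4.89, 3.17 and 3.16 normalized counts, and it covers counting error only. Genes listed at 2 reads outnumbered those at 1 read in each library (843 against 409 in library 1), so a pair of mates may give 2 reads and the floor may hold under 2 fragments. To compare genes with each other, reads were divided by exon length and scaled to a sum of 1000000 per library (TPM). A gene was classed as present at 1 TPM or more in each library, trace at 3 reads or more in each but under 1 TPM in any, at the floor with under 3 reads in each, and mixed otherwise.

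Of 19904 genes, 12339 (62.0%) were present, 2846 were trace, 1594 were mixed and 2289 (11.5%) were at the floor. A length was not found for the other 836. Among 16156 protein-coding genes with an entry and a length, 71.1% were present. Genes without an entry among the deposited values are in no share, among them 52 of the 790 genes of the lists used below. The median over all genes with a length was 7.77 TPM. The 10 most abundant genes took 5.42% ± 0.11 (SD, n = 3) of the reads, the top 100 took 18.8% ± 0.17, and 921 genes held 50% of them.

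**Figure D1:**
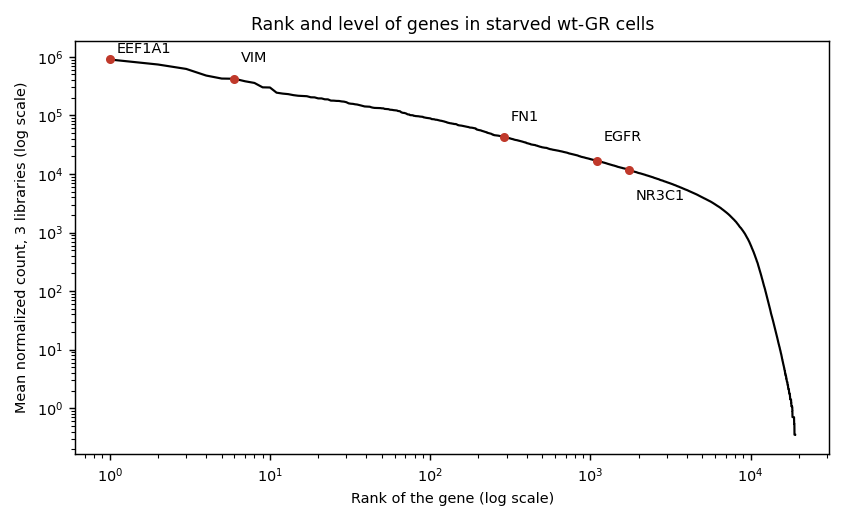
Mean normalized count over the 3 libraries (log scale) against the rank of the gene (log scale), with 5 genes marked in red. EEF1A1 ranked 1, VIM 6, FN1 288, EGFR 1100 and NR3C1 1738, and the curve bends down steeply only among the genes of low level.

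By normalized count the first rank went to EEF1A1, the translation elongation factor that brings aminoacyl-tRNA to the ribosome. It had 868124, 905438 and 930949 normalized counts. GAPDH, PKM and ENO1, which are enzymes of glycolysis, followed with means of 740388, 622372 and 479519. The cytoskeletal genes ACTG1, VIM, ACTB and FLNA were among the first 10, together with ANXA2, a membrane-binding annexin, and RPLP0, a ribosomal protein gene. Ranks 11 to 20 held RPL4, HSP90AA1, HSP90AB1, LDHA, YWHAZ, AHNAK, HSPA8, SCD, HMGA1 and PLEC. HSP90AA1, HSP90AB1 and HSPA8 are the cytosolic chaperones that hold GR among other clients. AHNAK, a giant scaffold protein gene, had 320263, 191344 and 133341 normalized counts, so its place in the order depended on the library.

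Per length, the order changed, and 10 of the first 20 genes were shared by both ranks. GAPDH led with 14578, 14790 and 15008 TPM. FTL, the ferritin light chain, had a mean of 10328 ± 274 TPM and TMSB10, an actin-binding thymosin, 10028 ± 266. S100A6, a small calcium-binding protein gene, and RPS12 followed at 7807 and 5801 TPM. HMGA1, a chromatin protein gene often high in tumours, had 4182 ± 42 TPM, and LGALS1, encoding galectin-1, had 4159 ± 182. MT2A, a metallothionein gene that glucocorticoids and metals induce, had 3396, 3432 and 4007 TPM. MIR4426 and MIR3654 also reached the first 20, at 12270 and 5756 TPM. They are listed as 63 and 56 bases, shorter than a 75-base read, and lie inside RPS27AP5 and CHCHD3 on the same strand, so their values per length cannot be read as levels of a microRNA.

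Abundant groups included glycolysis, the cytoskeleton and the ribosome. All 19 listed genes of glycolysis were present, with a median of 405 TPM, and together they took 3.25% ± 0.079 of the reads. Of all protein-coding genes 71.1% were present. All 19 genes of the actin cytoskeleton were present and took 2.76%. Of 84 ribosomal protein genes 82 were present, with a median of 891 TPM, and they took 6.35% ± 0.41 of the reads. The 13 measured translation factors were all present and took 2.15%. Of 21 annexin and S100 genes 17 were present and the list took 1.05%, led by S100A6, S100A11 and S100A10, whereas S100A7 and S100A9, which are known from inflamed squamous epithelium and myeloid cells, were at the floor.

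Mesenchymal markers ranged from among the highest genes to the floor. Of 36 measured members of the list, 26 were present, 7 trace, 1 mixed and 2 at the floor, with a median of 55.1 TPM beside 7.77 over all genes. Their share present was close to the 71.1% of all protein-coding genes. The other 2 listed genes had no entry among the deposited values. VIM led with 4005, 3941 and 3794 TPM. AXL, a receptor kinase linked with migration, had 1179, 1123 and 1028 TPM. MMP14, a membrane-bound matrix protease, had 1047, 1070 and 1011 TPM. These genes were high in each library. SPARC, a matricellular protein gene, had a mean of 607 TPM. FN1 reached 161, 115 and 80.9 TPM. ZEB1, a repressor of epithelial genes, had 61.1, 57.1 and 50.9 TPM, and SNAI2 had 37.7, 38.3 and 37.1. Other markers were low. CDH2, the N-cadherin gene, had 0.24, 0.202 and 0.132 TPM, and ACTA2, MMP2, COL1A2 and THY1 were trace. TWIST2 and FOXC2 were at the floor.

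Of 42 measured epithelial and luminal markers, 28 were present, 7 trace, 5 mixed and 2 at the floor. Of all protein-coding genes 71.1% were present. The median of the list was 3.19 TPM, below the 7.77 TPM over all genes. The 6 keratins of this list were all present. KRT18 had 552, 541 and 588 TPM and its partner KRT8 had 436, 438 and 442. KRT7 and KRT19, which are also keratins of simple epithelium, had 350, 373 and 376 and 79.9, 86.3 and 89.2 TPM. KRT81, a hair keratin, and KRT80 had means of 414 and 348 TPM. CDH1, the E-cadherin gene, was mixed at 0.0652, 0.0756 and 0.00811 TPM, so keratins and E-cadherin stood far apart. EPCAM, an epithelial adhesion protein gene, had 19.3, 20.2 and 21 TPM, and CLDN7 had a mean of 21 TPM. Of 16 cell junction genes 10 were present, led by PKP3 and DSP at means of 30.8 and 23.2 TPM. Of 15 transcription and splicing factors 7 were present, 3 trace, 4 mixed and 1 at the floor. TFAP2C and ELF3 were present at means of 41.4 and 1.15 TPM, and ESRP2 was trace at 1.25. GRHL2, OVOL1 and OVOL2 were mixed, ESRP1 was trace at 0.276, 0.346 and 0.242 TPM, and ELF5 was at the floor. RAB25 was at the floor as well. XBP1 had 125, 139 and 137 TPM, with SPDEF at a mean of 26.6 and GATA3 at 11.4, and these are transcription factors of luminal and secretory cells. TFF3 had 27.3, 27.3 and 35.2 TPM and AGR2 19.9, 21 and 20, both of them secretory luminal genes.

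Basal markers spanned a wide range. Of 30 measured members, 18 were present, 6 trace, 2 mixed and 4 at the floor, with a median of 7.24 TPM, beside 71.1% of all protein-coding genes present. Of 6 measured keratins of basal and squamous epithelium 2 were present, KRT15 at 4.74, 4.73 and 5.31 TPM and KRT16 at 1.09, 1.26 and 1.21. The others were lower, with KRT5 at 0.0575, 0.0494 and 0.107 TPM, KRT17 at 0.291, 0.426 and 0.378, and KRT14 and KRT6A at the floor. Of 5 transcription factors SOX9, at 120, 111 and 103 TPM, and FOXC1, at 6.76, 5.79 and 6.15, were present. TP63, the basal p63 factor, was trace at 0.148, 0.0546 and 0.132 TPM, as was BCL11A, and SOX10 had no read. Of 9 adhesion and basement membrane genes 8 were present, with CDH3 trace, and of 10 receptors and membrane proteins 6 were present. NGFR was trace, CRYAB and KIT were mixed and MIA was at the floor. CAV1, the main protein of caveolae, had 884, 884 and 832 TPM. LAMB3, a laminin chain of the basement membrane, had 551, 540 and 530 TPM. ITGB4, its integrin receptor chain, had 72.7, 68.9 and 61.2 TPM.

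**Figure D2:**
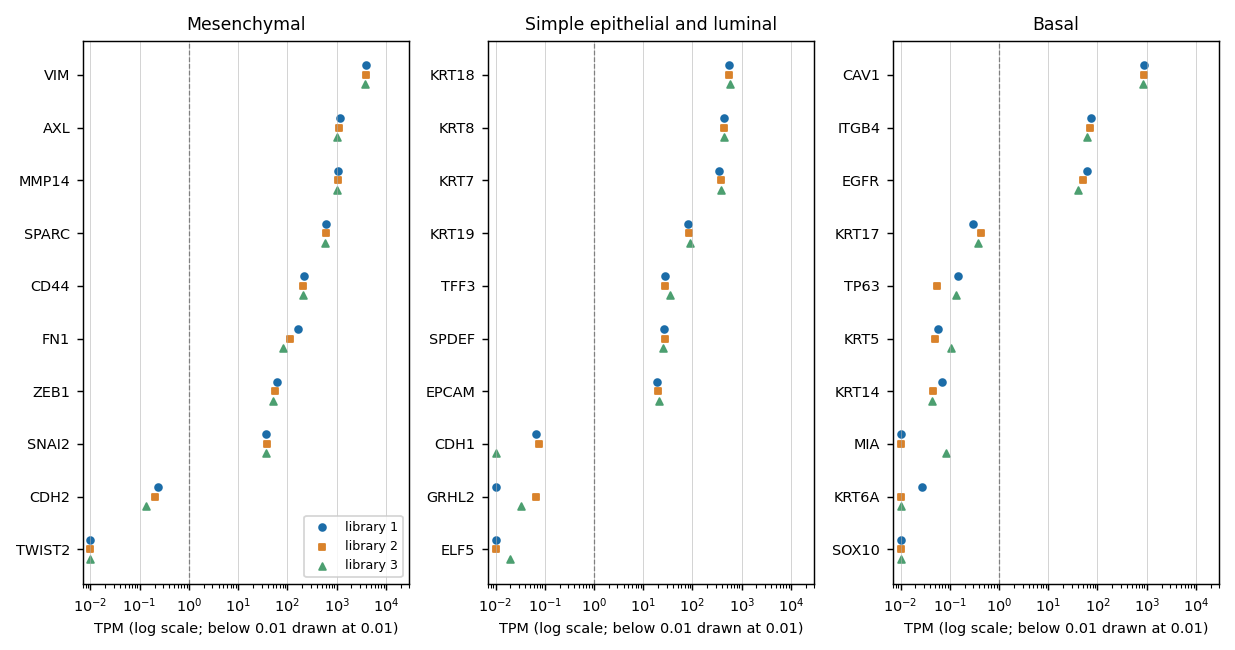
TPM (log scale, values below 0.01 drawn at 0.01) of up to 10 members of the mesenchymal, epithelial and luminal, and basal lists, chosen for display after their values were seen. Each point is 1 library and the dashed line marks 1 TPM; VIM, AXL, KRT18, KRT8 and CAV1 lie far to its right, and CDH1, CDH2, KRT5 and SOX10 to its left.

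Markers of other cell types were measured as well. CD68 was the single leukocyte marker present of 9 measured, with a mean of 620 TPM, and it encodes a lysosomal protein that is not limited to macrophages. CD8A lay at the limit, with a mean of 1.09 TPM and 0.979 in library 3, so 2 were present without library 3. PTPRC, the common leukocyte antigen, was mixed at 0, 0.00992 and 0.0255 TPM, with 69.0% of its stretches also on other scaffolds of the genome build. None of 6 adipocyte and 5 liver markers was present, beside 71.1% of all protein-coding genes. Among 7 endothelial markers 4 were present, led by TIE1 at a mean of 20.5 TPM, with VWF at 1.83. Among 7 fibroblast markers PDGFRB and COL1A1 were present, and FAP and DCN were at the floor. For neurons and glia 5 of 8 were present, led by ENO2 and TUBB3, and for melanocytes MITF and PMEL were present of 5.

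Promoters can be set beside these levels, since the choice of libraries did not use sequence. Windows of 300 bases, from 250 before to 50 after the RefSeq start, are given for VIM, KRT8 and KRT5, a mesenchymal, a simple epithelial and a basal filament gene of very different level. They lie at chr10:17227991-17228290 on the plus strand and at chr12:52926420-52926719 and chr12:52520345-52520644 on the minus strand of GRCh38.p14. Capitals mark the GC box GGGCGG:
VIM: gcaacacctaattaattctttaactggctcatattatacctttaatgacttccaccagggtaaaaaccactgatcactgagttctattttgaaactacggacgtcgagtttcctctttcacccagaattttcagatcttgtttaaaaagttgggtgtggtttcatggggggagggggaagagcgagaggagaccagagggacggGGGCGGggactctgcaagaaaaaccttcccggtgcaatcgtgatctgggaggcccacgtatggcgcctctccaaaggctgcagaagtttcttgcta
KRT8: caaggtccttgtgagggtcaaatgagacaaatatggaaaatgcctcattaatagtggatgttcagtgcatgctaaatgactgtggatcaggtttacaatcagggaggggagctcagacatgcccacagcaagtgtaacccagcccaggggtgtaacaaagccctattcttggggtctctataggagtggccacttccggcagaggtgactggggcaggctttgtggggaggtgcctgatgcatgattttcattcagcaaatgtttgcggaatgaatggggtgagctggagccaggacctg
KRT5: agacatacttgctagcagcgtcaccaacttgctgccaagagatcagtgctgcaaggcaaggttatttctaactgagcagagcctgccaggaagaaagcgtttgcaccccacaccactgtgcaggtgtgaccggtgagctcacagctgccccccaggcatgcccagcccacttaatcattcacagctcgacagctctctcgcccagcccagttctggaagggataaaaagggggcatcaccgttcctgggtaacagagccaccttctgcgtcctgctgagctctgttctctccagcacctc
The VIM window held 1 GC box, and none of the 3 windows held the TATA box TATAAA or the CCAAT box on either strand. Which start the cells used was not measured.

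Over many genes, promoters of abundant genes were richer in CpG. A window was taken as CpG-rich when its observed over expected CpG ratio exceeded 0.6, as 47.0% of all 22114 RefSeq windows did. For genes at the floor 30.4% were CpG-rich (95% binomial interval 27.5 to 33.5, n = 950), for trace genes 52.8%, and for 4 equal groups of present genes from low to high TPM 76.7%, 88.3%, 91.5% and 94.2%. TATAAA was held by 15.1% of windows at the floor and 5.53% in the highest group, beside 12.7% of all windows. GGGCGG was held by 34.4% and 77.6%, beside 43.0%. CCAAT was held by 36.1% and 39.6%, beside 36.2%. Of the windows shown above, those of VIM and KRT8 do not follow the trend. VIM and KRT8 are in the highest group by level. At the single RefSeq start examined for each, which the cells may not use, the CpG ratios were 0.584 and 0.111, under the threshold. KRT5, which was trace, had 0.301, also under it. All motifs were searched on both strands, and a match describes letters only.

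**Figure D3:**
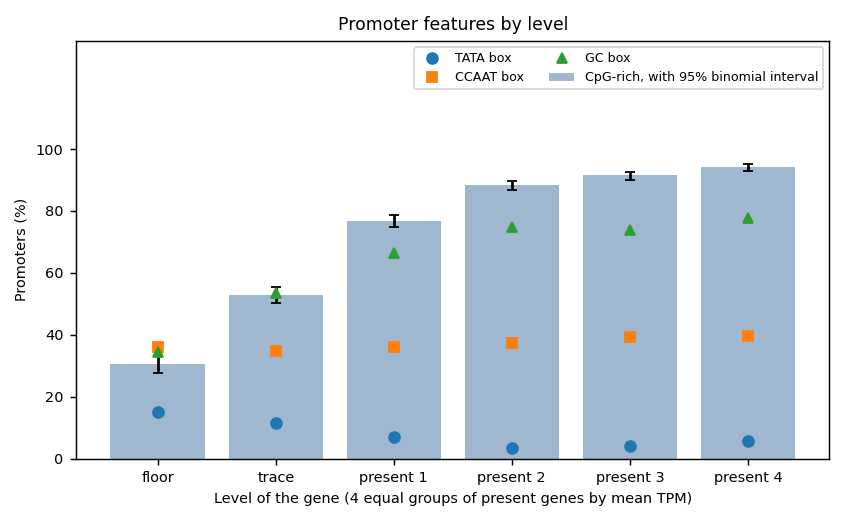
Share of promoter windows (%) that were CpG-rich (bars, with 95% binomial intervals) or held each of the 3 motifs (points), by level of the gene. The CpG-rich share goes from 30.4% at the floor to 94.2% in the highest group of present genes, while the CCAAT share stays between 34.6% and 39.6%.

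Steroid receptors were led by GR. NR3C1 had 67.5, 64 and 53.3 TPM. NR3C2, the mineralocorticoid receptor, had 2.4, 2.36 and 2.21 TPM, below each library of NR3C1. ESR2 was trace at 0.232, 0.291 and 0.248 TPM and ESR1, the oestrogen receptor alpha gene, was at the floor. PGR, the progesterone receptor gene, had no entry among the deposited values, so its level is not known. Of all 45 measured nuclear receptors, 27 were present, beside 71.1% of all protein-coding genes. NR2F2 led them at 124, 117 and 112 TPM, followed by NR1H2, an oxysterol receptor, at a mean of 79 TPM. RXRB was trace at a mean of 0.62 TPM, and 77.1% of its stretches also lie on other scaffolds.

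Genes of the machinery around GR were mostly present. Of 35 measured members of the GR list 33 were present, beside 71.1% of all protein-coding genes. HSP90AB1 had 3805, 3730 and 3602 TPM. The immunophilin FKBP4 had 129, 127 and 128 TPM, above FKBP5 in each library, which had 18.8, 17.5 and 16.7. Both are co-chaperones of GR, and FKBP5 is also induced by it. All 9 coregulators were present, among them the corepressor NCOR1 at 61.2, 54.5 and 45.9 TPM. HSD11B1, which regenerates cortisol, had 1.62, 1.96 and 1.73 TPM, and HSD11B2, which inactivates it, was mixed at 0.0593, 0.421 and 0.332. All 9 measured hormone-responsive genes were present in medium with stripped serum, from MT2A down to KLF9 at 1.25, 1.24 and 1.15 TPM. TSC22D3, encoding GILZ, had 28.1, 29.6 and 29.5 TPM and SGK1 had 4.24, 4.21 and 4.57.

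Growth factor receptors varied over a wide range. In the EGF receptor family, EGFR had 61.1, 50.1 and 40.6 TPM and ERBB2 had 41.7, 41.8 and 40.2, so their libraries overlapped, and with the longest transcript as length ERBB2 stood first. ERBB3 had a mean of 1.19 ± 0.16 TPM and ERBB4 was trace. Of 57 measured receptor tyrosine kinases 29 were present, 15 trace, 5 mixed and 8 at the floor, beside 71.1% of all protein-coding genes present. AXL led, then EPHA2, an ephrin receptor, at 514, 515 and 494 TPM. MET, the receptor of hepatocyte growth factor, had 74.9, 74.1 and 65.1 TPM. KDR, the main VEGF receptor of endothelium, was trace at 0.749, 0.588 and 0.396 TPM, and FLT3, MUSK, ROR2 and NTRK3 were at the floor. DDR1 was listed at 2.4, 2.56 and 2.46 TPM, with 67.3% of its stretches on other scaffolds.

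Receptors, ligands and SMADs of the TGFβ pathway were measured here without added TGFβ1. TGFBR2, the type II receptor that binds the ligand, had 425, 438 and 406 TPM, and TGFBR1, the type I kinase it recruits, had 30.1, 29.4 and 26. ENG, a co-receptor, had 283, 274 and 276 TPM. Of 16 measured receptors of the superfamily 12 were present, beside 71.1% of all protein-coding genes, and AMHR2 and TDGF1 were at the floor. SMAD3, which carries the signal to DNA, had 172, 164 and 154 TPM, far above SMAD2 at 6.98, 6.55 and 6.25. TGFB1 had 198, 198 and 222 TPM and BMP4 had 197, 189 and 186. Of 12 ligands 7 were present, while BMP2, NODAL and INHBA were trace and BMP7 and LEFTY2 were at the floor. All 8 inhibitors were present, among them SMURF2 at a mean of 131 TPM and SMAD7 at 11.3.

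**Figure D4:**
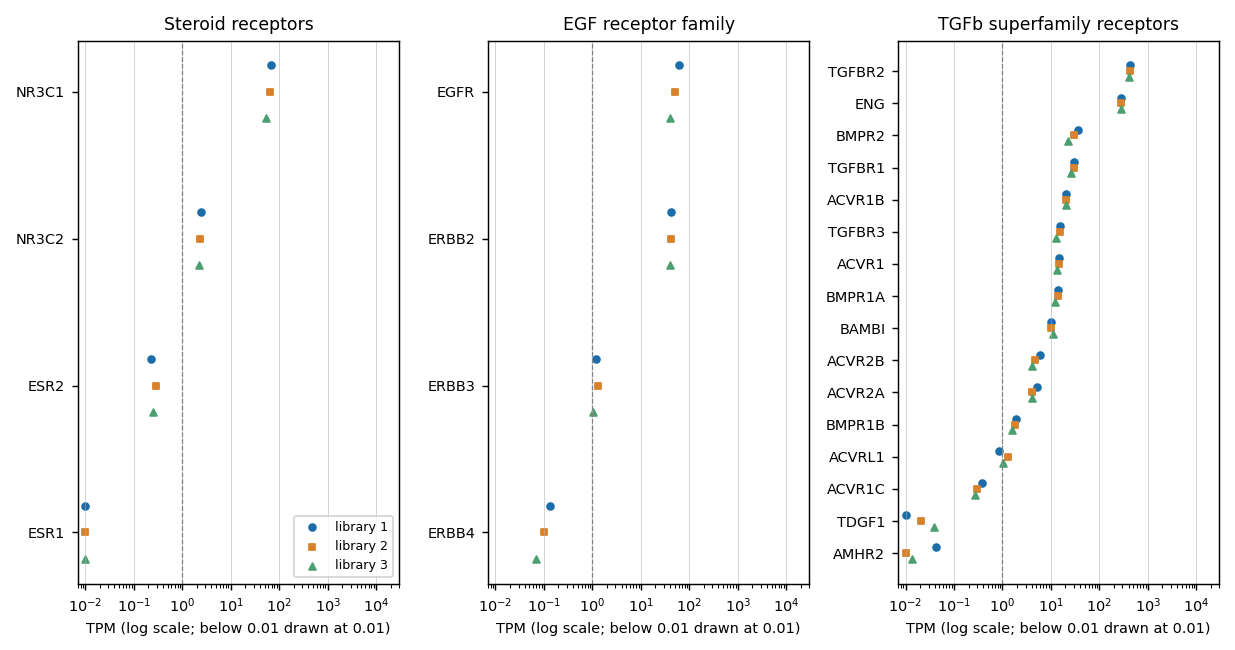
TPM (log scale, values below 0.01 drawn at 0.01) of steroid receptors, EGF receptor family members and TGFβ superfamily receptors, with 1 point per library and a dashed line at 1 TPM. NR3C1, EGFR, ERBB2, TGFBR2 and ENG lie well to the right of the line and ESR1, ERBB4, TDGF1 and AMHR2 to its left.

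Cytokine receptors were present for 28 of 40 measured genes. Over all protein-coding genes, beside which each list here can be set, the share present was 71.1%. IL13RA2, a decoy receptor of interleukin 13, had 442, 450 and 411 TPM, and OSMR, the oncostatin M receptor, had 138, 133 and 116. CSF3R, the receptor of CSF3, had no read, while CSF3 itself had 83.9, 98.7 and 104 TPM. Among 27 measured TNF receptors 13 were present, led by TNFRSF21 at 361, 348 and 328 TPM. Chemokine receptors were the other extreme, with 2 of 18 present. These were CCR1 at 13.2, 14.7 and 15.2 TPM and CCR10 at 1.54, 1.81 and 1.56. CXCR4, a receptor studied in metastasis, was mixed at 0, 0.0528 and 0.0339 TPM, and CCR9 and CX3CR1 had no read.

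Of 43 other G protein-coupled receptors 21 were present. The share of all protein-coding genes present, to be set beside each list here, was 71.1%. F2RL1, a receptor cut by trypsin-like proteases, had 365, 368 and 353 TPM, and ADORA2B, an adenosine receptor, had 103, 109 and 114. Of 18 Notch, Wnt and Hedgehog receptors 14 were present, with NOTCH2 at 179, 139 and 107 TPM. SMO was mixed. Among 26 integrin chains 13 were present. ITGA3 had 849, 844 and 771 TPM and ITGB1 447, 446 and 411, and these chains pair as a laminin receptor, while ITGA4 and ITGA8 were at the floor.

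The study places a cascade of MAP3K5, MAP2K3 or MAP2K6, and p38 upstream of this serine of GR. MAP3K5, encoding ASK1, had 19.8, 19.5 and 17 TPM. All 4 p38 genes were present, beside 71.1% of all protein-coding genes. MAPK14, encoding p38α, had 97.3, 97.4 and 91.4 TPM, above MAPK13 at 44.5, 47.8 and 43.8, MAPK12 at 11.1, 11.7 and 13.1, and MAPK11 at 7.39, 8.79 and 7.97. Of 25 genes of the p38 module 24 were present, and MAP2K6 was trace at 0.841, 1.07 and 0.872 TPM beside MAP2K3 at 145, 142 and 149. The 14-3-3 genes, whose proteins bind phosphorylated partners, were all present. YWHAZ led at 1236, 1241 and 1163 TPM. YWHAE was listed at 6.72, 7.34 and 142 TPM, so library 3 was far above the others.

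Proliferation genes were present in the starved cells. Of 42 measured cell cycle genes 41 were present, beside 71.1% of all protein-coding genes. The median of the 42 was 137 TPM. CDC20 had 554, 543 and 557 TPM, CCNB1 435, 432 and 427, and MCM3 425, 399 and 403. CCND1, the G1 cyclin D1, had 584, 569 and 530 TPM. Among CDK inhibitors CDKN1A, encoding p21, had 102, 103 and 103 TPM and CDKN1B, encoding p27, had 23.1, 24 and 23.7. CDKN2A and CDKN2B had no entry among the deposited values, so their levels are not known. On 9p21 near them KLHL9 had no read in any library, while MLLT3 had 10, 10.2 and 9.66 TPM. Immediate early genes were present for 13 of 16, with FOSL1 at 764, 768 and 774 TPM and FOS at 3.53, 3.41 and 3.23.

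Secreted factors were present for 38 of 48 measured genes, beside 71.1% of all protein-coding genes. PLAU, the urokinase gene, had 1073, 1102 and 1124 TPM and CYR61, a matricellular factor, had 706, 763 and 766. LIF and IL11 had means of 93.8 and 92.5 TPM, whereas IL6 had 1.21, 1.29 and 1.63. CXCL12, CXCL5, FGF2 and MMP7 were at the floor. Of 11 measured cancer-testis antigens 6 were present, led by MAGEA6 and MAGEC1 at 146 and 111 TPM. MAGEA6 and MAGEA3 are near-identical copies, so reads may have been split between them.

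Replicates agreed closely for most genes. Pearson's r of log2 values across genes was 0.987, 0.987 and 0.99 between pairs of libraries, as a description, since genes are not independent. Among 12384 genes with a mean of at least 100 normalized counts the median coefficient of variation (CV) was 5.07%, beside 2.09% from counting alone, and 81.2% of them were under 10%. The counting value takes each read as a separate count, so it would be higher if mates were counted apart. Without library 1, 2 or 3 the median CV was 4.01%, 5.43% and 3.34%. Each of these rests on fewer libraries, so it is not directly comparable with the CV over 3. TARDBP had 17348, 17344 and 17337 normalized counts. It was the gene of lowest CV among those with a mean of at least 1000, at 0.0332% beside 0.848% from counting alone.

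The longest and the shortest transcripts varied more than those between. Over the 1293 genes with a longest transcript of over 8000 bases the median CV was 9.67%, and the median log2 of the value against the gene's mean was 0.12 in library 1, -0.00 in library 2 and -0.13 in library 3. For 357 genes of up to 1000 bases the log2 medians were -0.07, -0.04 and 0.10, and the median CV was 7.49%. In the classes between, from shorter to longer, the median CV was 5.46%, 4.26% and 4.70%. FN1, EGFR and AHNAK, which are long, were high in library 1 and low in library 3.

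**Figure D5:**
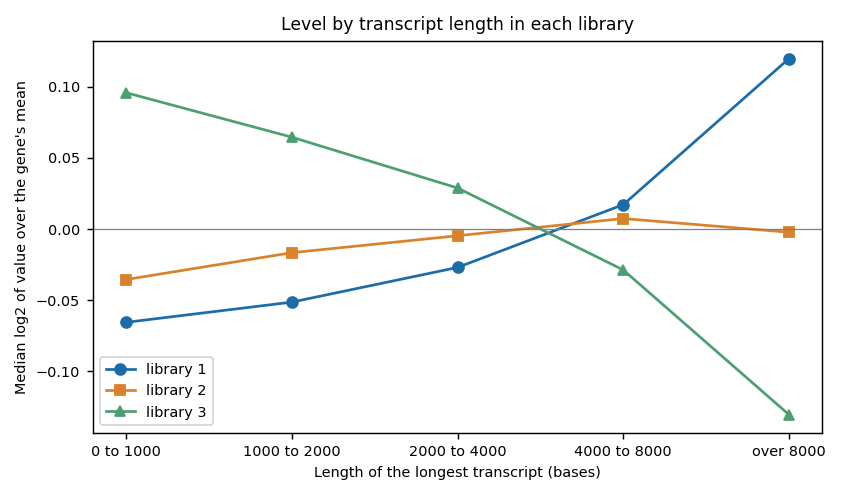
Median log2 of the normalized count over the gene's own mean, by length class of the longest transcript (bases), with 1 line per library. Library 1 lies above 0 and library 3 below it for transcripts of over 8000 bases, and the reverse holds for the shortest class.

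A few genes varied far more than the rest. YWHAE had 510, 560 and 11199 normalized counts, CUTA 481, 96.2 and 5152, and EEF1D 316, 568 and 3911. Of their stretches of 75 bases, 81.9%, 94.7% and 94.1% also occur on other scaffolds of hg38. Among genes with a mean of at least 1000 normalized counts, 11 of 49 with 50% or more of their stretches on such scaffolds had a CV over 50%, against 2 of 7994 with none. U2AF1, with 1077, 3831 and 91.6 normalized counts, had no such stretch. Only scaffolds outside the primary chromosomes were searched, so copies of a gene on the primary chromosomes were not looked for. The way the counting treated reads that match in several places was not tested, and the levels of these genes, and of RXRB, DDR1 and PTPRC, are uncertain.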

How the data were processed

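RNA-seq libraries of 12 samples were deposited, and the 3 libraries of the group WT-GR Veh were used; the other 9 entered no step. What the authors deposited is a signal per gene symbol, the normalized count: after FastQC 0.11.7 and Trimmomatic, reads were aligned by HISAT2 (hg38), counted by featureCounts (Subread) and divided by the DESeq2 1.22.2 size factor of the library. The annotation, the strand setting and whether mates were counted as a fragment are not given in the sources used here. Reads were recovered from the step of each library (100% of values whole within 0.1 read; size factors 0.614, 0.946 and 0.95), with totals of 56362036 to 86199175 reads. Recovery was checked on simulated data for 18775 genes.

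TPM used GENCODE release 44 exon lengths, found for 18775 of 19907 symbols (17687 by symbol and 1088 by an older symbol). Under 1% of reads lay on genes without a length. The share of 75-base stretches of the longest transcript that recur on 430 non-primary scaffolds was computed. Promoters and their coordinates came from RefSeq (GRCh38.p14), and genes with a single entry were used. Errors are the SD of 3 libraries. There is 1 group, so no test was run. Named were the 4 marker genes and the top 20 by normalized count and by TPM. Also named were up to 6 members per list role, members at the floor and whole small families. The 10 highest and 5 lowest CV at a mean of at least 1000 were named as well. Some genes that the rule names are not reported here. Genes named beyond this rule were chosen after their values were seen. The members and lists were chosen with earlier results of these data known. The promoters shown were picked by hand as filament genes of differing level; a set of GAPDH, EEF1A1 and KRT5 was also looked at and set aside, since it would have been picked for following the CpG trend. Python 3.11.15, numpy 2.4.6, pandas 2.3.3, scipy 1.17.1, matplotlib 3.10.9, R 4.3.3 and edgeR 4.0.16 were used, the last for TMM scaling as an alternative. Other alternatives were thresholds, lengths, scalings and leaving out each library.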

Additional observations from a re-analysis of the deposited data

How the results depend on the processing

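No paired analysis was possible because 1 group was used and no test was made. With the floor at 1 read 923 genes lay under it, and with 10 reads 4202, beside 2289; a floor of 6 reads, added after seeing the data, gave 3358. Ranking by TPM kept 10 of the 20 most abundant genes, also with genes of under 200 bases left out, an alternative added after seeing the data. The median CV was 5.19% on values scaled by each library's total, 6.24% with means of at least 10, 4.28% with means of at least 1000 and 3.34% to 5.43% with a library left out. A CpG threshold of 0.75 gave 20.4% at the floor and 80.9% in the highest group of present genes. On the gene's own strand, TATAAA was held by 10.4% and 4.26%, CCAAT by 20.4% and 23.3%, and GGGCGG by 22.6% and 53.8%. With protein-coding genes only, added after seeing the data, GGGCGG was held by 38.3% at the floor. A count was taken as moved past 1.5 times, a level or share of reads past 1 SD, and a promoter share or the median CV past its 95% interval. By this 19 values of the main results moved and 90 did not, and of the counts present per list 7 moved and 197 did not. Leukocyte markers present were 1, but 2 without library 3 and 3 at 0.5 TPM. Leaving out a library gave 12412 to 12449 genes present and FN1 at 35420 to 49082 normalized counts. With the longest transcript as length the first member was the same in 34 of 35 receptor families, and ERBB2 took the place of EGFR. Leaving out mitochondrial genes was not run, since 0 such genes were in the table. Depth limits the genes near the floor, where presence and absence cannot be told apart, and exon length limits comparisons between genes, because the isoforms used were not measured.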
